A study of Naumovozyma castellii with 24 samples.

Results

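Mitochondrial protein import genes of the budding yeast Naumovozyma castellii, a relative of Saccharomyces cerevisiae, were followed across 10 groups of RNA-seq libraries. Members were the genes whose symbol starts with TIM, TOM, PAM, MIC, SAM or MIA followed by a digit, without the S-adenosylmethionine gene SAM2. This gave 36 of 5648 genes. By the roles known in S. cerevisiae they comprised 8 genes of the TOM complex, 3 of the SAM complex, MIA40, 5 small TIM chaperones, 3 genes of the TIM22 complex, 4 of the TIM23 complex, 4 of the PAM motor and 6 of the MICOS complex. A further 2 matched by name only, since in S. cerevisiae TOM1 encodes a ubiquitin ligase of the cytosol and nucleus, and TIM11 encodes subunit e of the ATP synthase.

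Most mitochondrial proteins are made in the cytosol and enter through the TOM complex of the outer membrane. From there, the SAM complex inserts beta-barrel proteins into the outer membrane, MIA40 folds proteins of the intermembrane space by disulfide bonds, and small TIM chaperones carry hydrophobic proteins to the TIM22 complex of the inner membrane. The TIM23 complex takes proteins with a presequence, and the PAM motor pulls them into the matrix. MICOS is not a translocase. It holds the junctions where the cristae, the folds that carry the respiratory chain, meet the rest of the inner membrane, and it contacts the TOM and SAM complexes.

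All libraries came from the strain background DBP004. The deletion experiment used WT cells, strains labelled rox1-/- and rox2-/-, and the double deletion rox1/rox2-/-. They were grown to an A600 of 1 and kept for a further 2 h without or with 0.6 mM CoCl2. This cobalt salt is used to mimic low oxygen, and its response is set beside that to hypoxia below. There were 3 libraries each of untreated WT and rox2 and 2 of each other group. The oxygen experiment compared WT cells after 6 h at 21% oxygen (normoxia) or 1% oxygen (hypoxia), with 3 libraries each. An A600 of 0.2 is given for these cultures, against 1 in the deletion experiment. The series' design text calls the replicates biological, the labels do not say how many clones of each deletion strain were used, and ROX1 is known in S. cerevisiae as a repressor of hypoxic genes.

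Libraries held 5.59 M to 12.74 M gene counts in the deletion experiment and 11.99 M to 12.18 M in the oxygen experiment. ROX1 had 191 to 216 counts in the 3 untreated WT libraries of the deletion experiment, at least 238 in each of those with CoCl2, and 0 or 1 in each library of a strain lacking it. The annotation used has no gene with the symbol ROX2, so the deletion of ROX2 was not checked from counts. Reads outside genes came to between 4.52% and 19.9% of gene counts and these reads together in the deletion experiment, with the highest values, 19.9% and 14.5%, in rox2 with CoCl2 replicate 1 and rox2 replicate 3. Levels below are CPM, counts scaled to library size with TMM, as mean ± SD over libraries. They are relative to the other RNA of the cells, and in such bulk samples a change in RNA per cell and a change in the mix of cells cannot be told apart. A gene is called, or said to rise or fall, where the adjusted p from edgeR's quasi-likelihood test is under 0.05.

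Per kilobase of coding length, the members of WT without CoCl2 ranged from TOM5 at 785 ± 12 CPM per kb to MIC26 at 14.4 ± 0.97 (n = 3). TOM5 encodes a small subunit of the TOM complex. TOM5, TOM7 and TOM6 are the shortest members, at 153, 183 and 186 bp, so their place in this order depends on the division by length. In CPM, TOM5 stood below TIM50 and TOM70, whose levels are given below. TIM10, a chaperone of hydrophobic proteins, followed at 583 ± 30 CPM per kb. TOM6 at 418 ± 32, TOM7 at 412 ± 11 and TOM22 at 404 ± 5.7 CPM per kb came next, and the ranges of TOM6 and TOM7 overlapped, so this part of the order lies within the spread. The channel gene TOM40 stood at 252 ± 8 CPM per kb and the TIM23 complex ranged from 219 ± 18 (TIM17) to 38.7 ± 2.8 (TIM21). Apart from SAM50, described below, the lowest 4 genes in WT were MIC19, MIC60, MIC27 and MIC26, all of MICOS, between 21.9 ± 1.5 and 14.4 ± 0.97 CPM per kb, while MIC10 stood at 68.8 ± 13.

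In normoxia, TOM6 led at 3683 CPM per kb, followed by TOM7 at 1178 ± 57 and TIM9 at 802 ± 93, and TOM5 stood at 272 ± 40. MIC26 was again the lowest, at 21.1 ± 1.6 CPM per kb. These orders come from libraries of different read lengths and providers, and the experiments were not tested against each other. SAM50, the channel of the SAM complex, had 1 count over the 18 libraries of the deletion experiment and 422 to 487 counts in each of the 6 libraries of the oxygen experiment. It was 1 of 13 genes with at most 3 counts over the deletion experiment and at least 100 in every oxygen library, and 0 genes showed the opposite pattern. The counts of the deletion experiment were deposited per exon and those of the oxygen experiment per gene, and whether annotation or counting differed for these genes was not tested, so the low count does not show that SAM50 was silent. SAM50 was not tested in the deletion experiment, which left 35 of 36 members there.

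**Figure D1:**
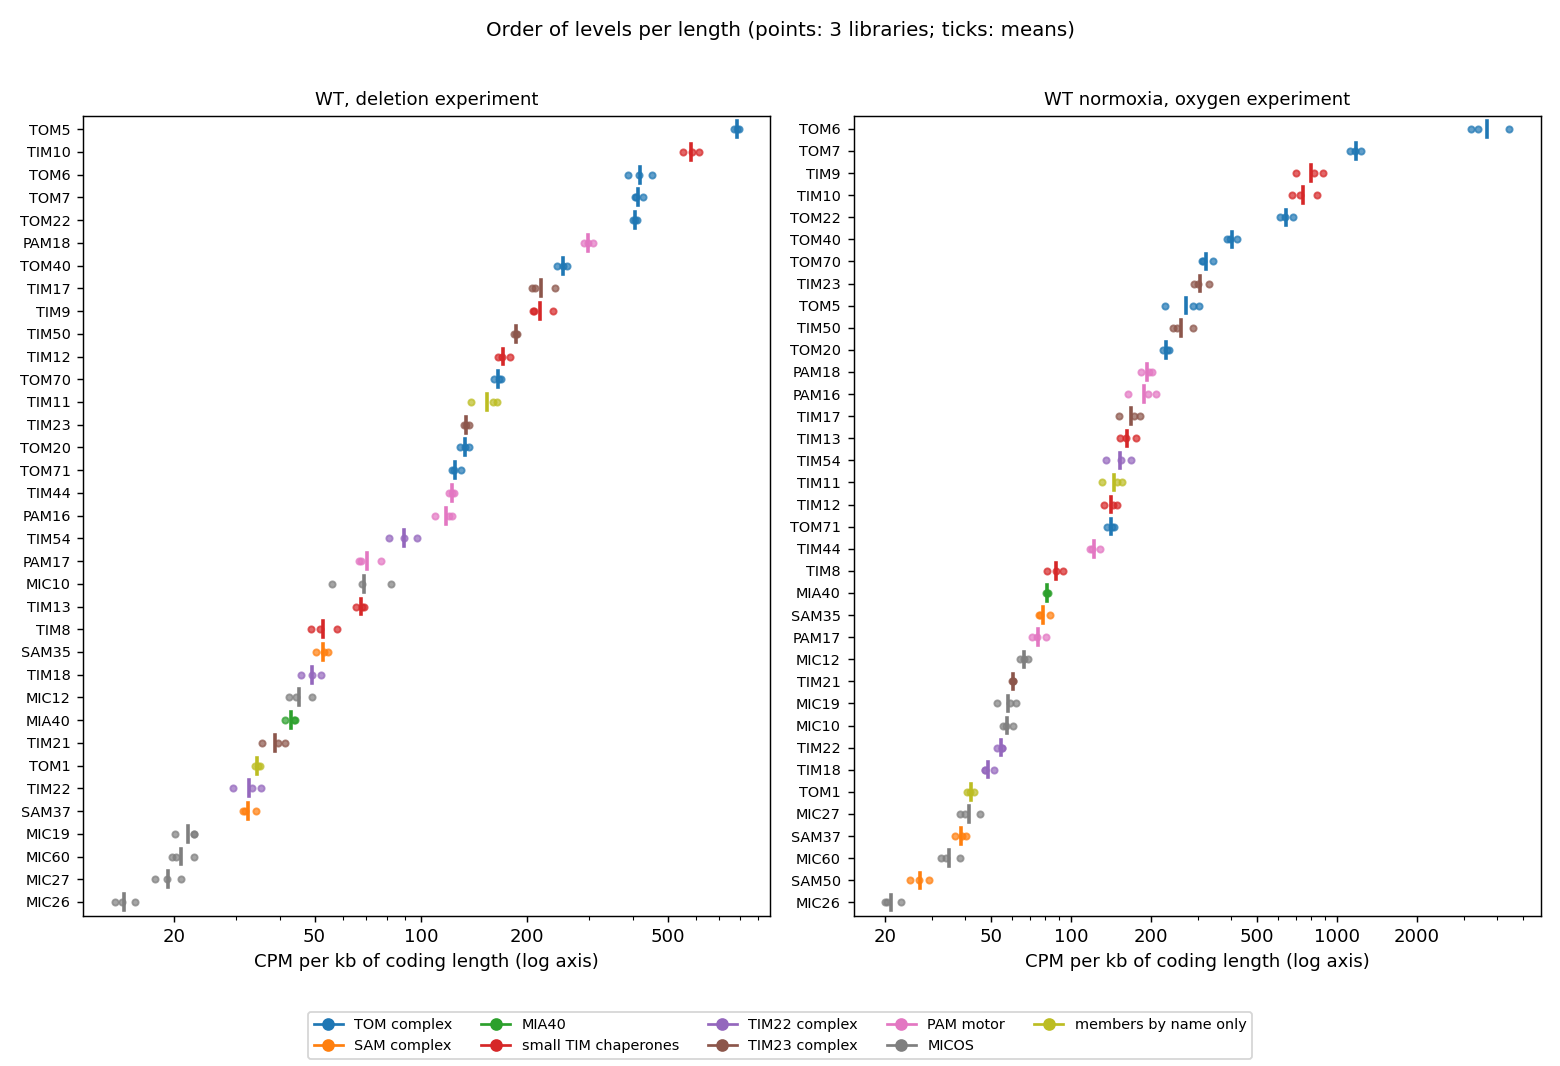
Levels of the import genes in CPM per kb of coding length (log axis) in WT without CoCl2 (left) and WT in normoxia (right), coloured by complex, with 1 point per library and a tick for the mean of 3 libraries. TOM5 leads on the left at 785 CPM per kb and TOM6 on the right at 3683, and MIC26 is the lowest gene drawn in both (14.4 and 21.1). SAM50, with 1 count in all, is not drawn on the left.

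With CoCl2 in WT, the MICOS genes rose and a part of the translocase genes fell, although how many fell depended on the scaling. All 6 MICOS genes rose, from 1.63-fold (MIC12) to 3.27-fold (MIC60). Among the other 29 members tested, 13 fell, and the 2 that rose were TIM11 and TOM1, which are members by name only. In all, 8 of 35 members rose and 13 fell, where 27.7% of all 5544 genes tested rose and 19.4% fell. With scaling to total counts, which shifted the median of all genes by 0.243 on the log2 scale, 12 members rose and 6 fell, where 33.8% of all genes rose and 11.2% fell. The 4 further rises in that fit were TIM22 (log2 0.89), MIA40 (0.78), TIM13 (0.67) and TOM40 (0.54). With a trend with coding length taken out, 10 rose and 9 fell, where 26.8% and 20.4% of all genes did. The libraries with and without CoCl2 did not overlap for 29 of 35 members and for 76.4% of all genes. The median log2 fold change was −0.17 over the members and 0.00 over all genes.

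MIC60 and MIC10 encode the core subunits that shape the cristae junction. MIC60 stood at 31.8, 30.9 and 35.8 CPM in the 3 WT libraries and at 128 and 86.3 with CoCl2 (log2 fold change 1.71, SE 0.228, adjusted p = 6.19e-05). MIC10 stood at 15.8, 19.3 and 23.2 CPM without and at 52.3 and 35.6 with CoCl2 (log2 1.19, SE 0.287, adjusted p = 0.00433). For both genes, every library with CoCl2 lay above every library without it, and the first CoCl2 library was the higher. MIC27, which with MIC26 encodes the apolipoprotein-like subunits, stood at 7.2, 8.52 and 7.81 CPM without and at 19.3 and 22.3 with CoCl2 (log2 1.40, SE 0.181, adjusted p = 4.97e-05). MIC19, a partner of MIC60, rose by 1.30 on the log2 scale (SE 0.281), MIC26 by 0.91 (SE 0.191) and MIC12 by 0.70 (SE 0.207). Without WT CoCl2 replicate 1, MIC10 and MIC12 no longer passed (adjusted p = 0.0833 and 0.26), and MIC12 also missed without WT replicate 2 or 3 (0.0549 and 0.0588).

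The TOM complex was divided by subunit. TOM5 stood at 120, 122 and 118 CPM without and at 47.7 and 38.4 with CoCl2 (log2 fold change −1.48, SE 0.26, adjusted p = 0.000486). The receptor genes TOM20 and TOM22 fell by 0.57 (SE 0.139) and 0.49 (SE 0.152) on the log2 scale. The receptor gene TOM70 did not pass, at 303, 288 and 299 CPM without and 309 and 278 with CoCl2, and the 95% interval of its log2 fold change ran from −0.35 to 0.32. TOM71, its paralogue, likewise had an interval from −0.28 to 0.26. The counter set aside reads that matched several places, so the levels of these paralogues could miss stretches they share. TOM40 (log2 0.29, adjusted p = 0.127), TOM6 (−0.42, adjusted p = 0.232) and TOM7 (0.27, adjusted p = 0.34) did not pass either. The ratio of TOM70 to TOM71 per kb was 1.32 ± 0.023 in WT without CoCl2 (n = 3).

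SAM35 had the most negative log2 fold change of all 35 members. It encodes a peripheral subunit that recognises beta-barrel precursors, and it stood at 50.2, 54.2 and 52.6 CPM without and at 19.2 and 17.6 with CoCl2 (log2 −1.50, SE 0.233, adjusted p = 0.000194). Its partner SAM37 had a log2 fold change of −0.28 (adjusted p = 0.203), and MIA40 one of 0.51 (adjusted p = 0.0853). Of the small TIM chaperones, TIM12, which in S. cerevisiae is bound to the TIM22 complex, stood at 58.3, 55.4 and 54.1 CPM without and at 17.5 and 24.5 with CoCl2 (log2 −1.42, SE 0.188, adjusted p = 5.99e-05). For SAM35 and TIM12 the groups were apart in every library. TIM10 and TIM9, which form a soluble chaperone together, fell by 0.79 (SE 0.273) and 0.56 (SE 0.201), and TIM13 and TIM8, which form another, had log2 fold changes of 0.40 (adjusted p = 0.117) and 0.36 (adjusted p = 0.375).

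In the inner membrane, 1 of 3 TIM22 complex genes fell. TIM54 stood at 132, 121 and 110 CPM without and at 78.3 and 74.2 with CoCl2 (log2 −0.67, SE 0.146, adjusted p = 0.00218), whereas the channel gene TIM22 had a log2 fold change of 0.62 (adjusted p = 0.0601) and TIM18 one of −0.24 (adjusted p = 0.256). Of the TIM23 complex, the receptor gene TIM50 and the channel genes TIM17 and TIM23 fell, by 0.74 (SE 0.139), 0.83 (SE 0.189) and 0.50 (SE 0.156). TIM50 stood at 274, 271 and 276 CPM without and at 174 and 154 with CoCl2, so the groups were well apart. TIM21, which links the complex to TOM, stood at 29.2 CPM without and 29.2 with CoCl2, with an interval from −0.28 to 0.28.

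Of the PAM motor, PAM18 and PAM16, the J protein and its partner, fell by 1.14 (SE 0.184) and 0.71 (SE 0.135) on the log2 scale. PAM18 stood at 142, 138 and 146 CPM without and at 62.1 and 66.8 with CoCl2 (adjusted p = 0.000258). TIM44, which tethers the motor to the channel, missed the threshold (log2 −0.33, adjusted p = 0.0526), as did PAM17 (−0.17, adjusted p = 0.472). Of the members by name only, TIM11 rose by 0.88 (SE 0.287) and TOM1 by 0.58 (SE 0.15). When a trend with coding length was taken out, TOM1, the longest member at 9780 bp, changed sign (log2 −0.09, adjusted p = 0.647). TIM23, TOM22, TIM10 and TIM9 then no longer passed (adjusted p = 0.0606, 0.0857, 0.129 and 0.163), and TIM13, TIM22 and TOM7 rose. With scaling to total counts, 7 of the 13 falls lost their call (PAM16, TIM54, TIM23, TOM20, TOM22, TIM10 and TIM9), and all 13 kept their direction. Without WT CoCl2 replicate 1, TOM20, TOM22, TIM10, TIM9 and TIM11 no longer passed (adjusted p from 0.0908 to 0.251), and without WT CoCl2 replicate 2, TIM23, TIM10 and TOM1 did not (0.192, 0.0713 and 0.055). TIM11 was also lost without WT replicate 1 or 2 (0.0819 and 0.0563), and TIM9 without WT replicate 2 (0.0645).

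**Figure D2:**
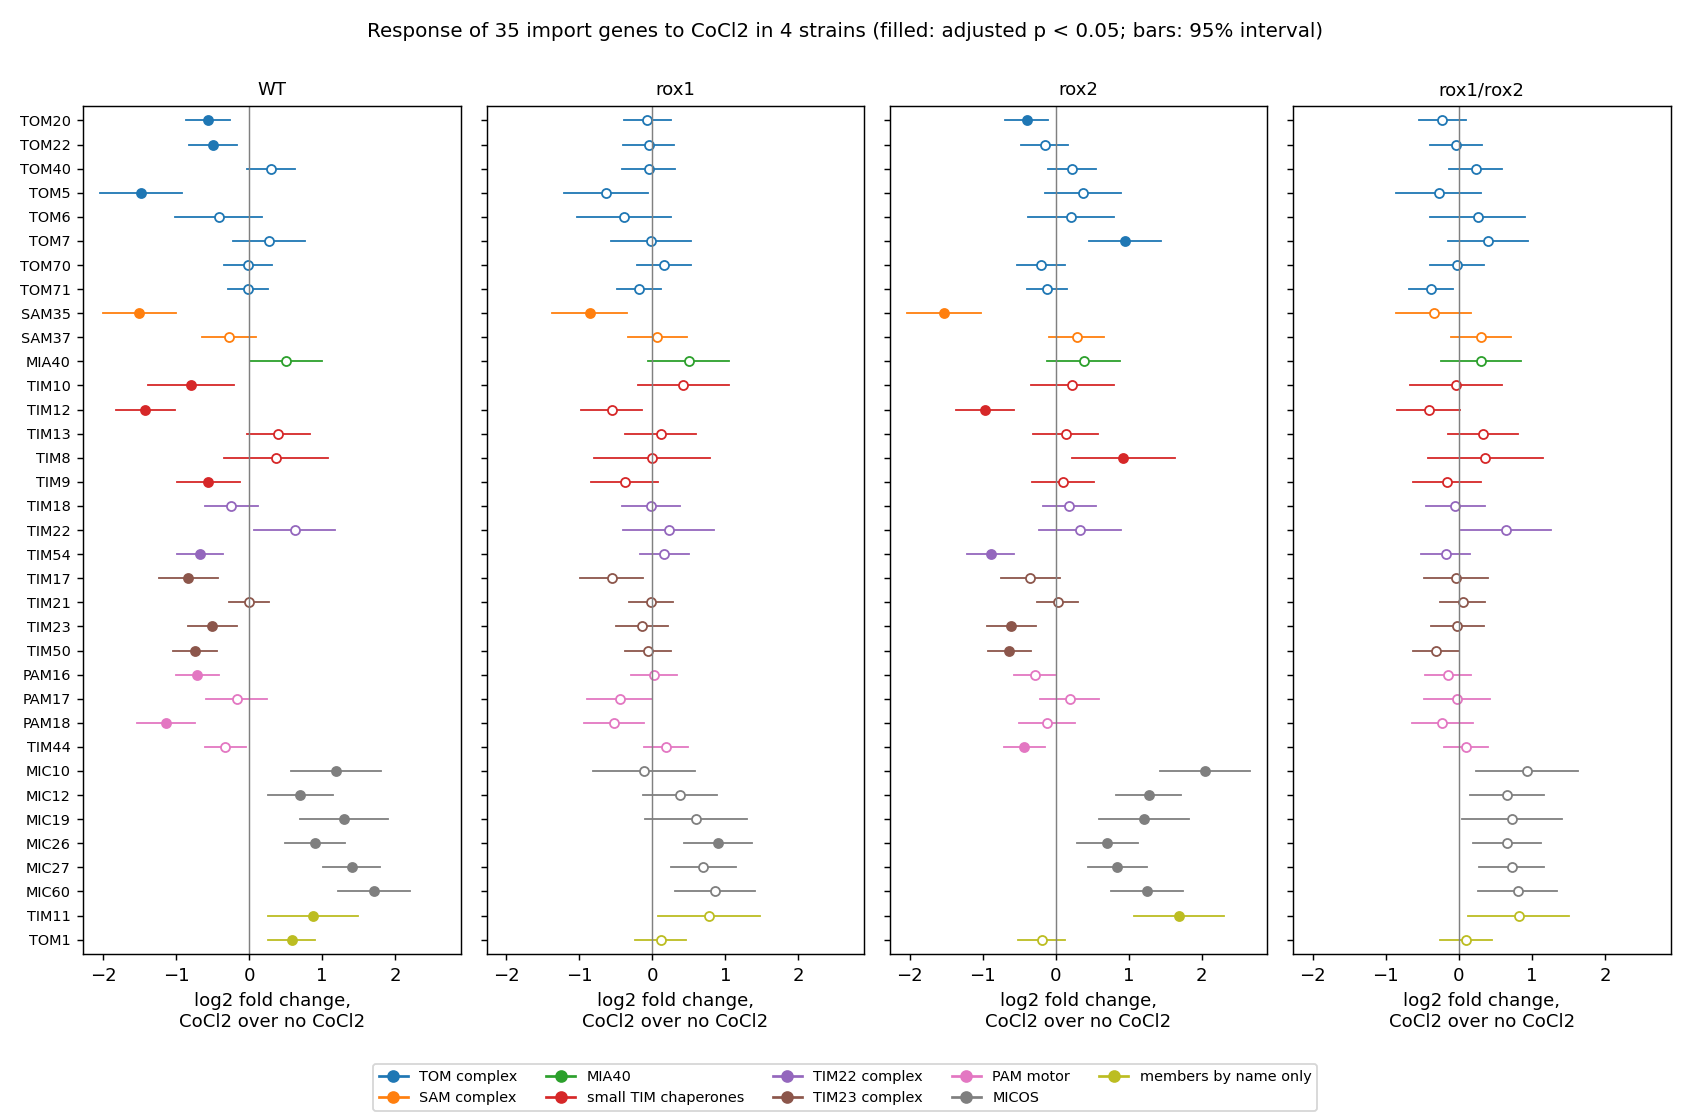
Log2 fold change with CoCl2 of 35 import genes in WT, rox1, rox2 and rox1/rox2 cells, with 95% intervals, filled where the adjusted p was under 0.05, coloured by complex. The 6 MICOS genes (grey) lie right of 0 in WT, rox2 and rox1/rox2 and are filled in WT and rox2, whereas SAM35 and TIM12 lie left of 0 in all 4 strains.

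In rox2 cells, 9 of 35 members rose and 7 fell with CoCl2, where 26.3% of all genes rose and 21.8% fell. With total counts 10 rose and 3 fell, where 32.4% and 12.6% of all genes did, and with the length trend taken out 6 rose and 12 fell, where 26.8% and 19.8% did. All 6 MICOS genes rose again, with a median log2 fold change of 1.23. This median was 0.87 with the length trend taken out, with 5 of the 6 called, and 0.92 without rox2 CoCl2 replicate 1, with 4 called, and the medians of the strains were not tested against each other. MIC10 stood at 23, 23.4 and 24.1 CPM without and at 121 and 74.2 with CoCl2 (log2 2.05, SE 0.287, adjusted p = 0.000107). Both libraries with CoCl2 lay above all 3 without. MIC12 rose by 1.27, MIC60 by 1.25, MIC19 by 1.21, MIC27 by 0.85 and MIC26 by 0.71.

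The falls in rox2, of which TIM44, TIM23, TIM50 and TOM20 lost their calls with total counts (adjusted p from 0.0949 to 0.431), included SAM35, at 50.2, 60.7 and 36.8 CPM without and 15.2 and 19 with CoCl2 (log2 −1.52, SE 0.236, adjusted p = 0.000219). TIM12 fell by 0.97 and TIM54 by 0.89, TIM50 by 0.63, TIM23 by 0.61, TIM44 by 0.43 and TOM20 by 0.40. TIM11 rose by 1.69 (SE 0.288), and the small TOM subunit gene TOM7 rose by 0.95 (SE 0.229). TIM8 rose by 0.93 (adjusted p = 0.0319), although one of its CoCl2 libraries, at 20.3 CPM, lay below one without, at 22.1. With the length trend taken out, TIM8, TOM7 and MIC27 no longer passed (0.237, 0.146 and 0.0548), and TOM22, TIM9, TIM17, PAM16 and PAM18 fell. TOM5, which fell in WT, stood at 121, 129 and 192 CPM without and at 146 and 237 with CoCl2 in rox2 (the groups overlapped). Replicate 3 without CoCl2, the library high in reads outside genes, was the highest of its group for TOM5 and TOM7, and the part of those reads in these values was not tested. MIC19, MIC26, TIM44, TOM20, TOM7 and TIM8 lost their calls without rox2 CoCl2 replicate 1 (adjusted p from 0.0511 to 0.537), and TIM44 and TIM23 without rox2 CoCl2 replicate 2 (0.0611 and 0.0731). Without rox2 replicate 1, TOM20 and TIM8 were lost (0.0741 and 0.0916), and without rox2 replicate 2, TIM44 and TIM8 (0.0693 and 0.0921).

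In rox1 cells, 1 member rose and 1 fell with CoCl2, where 4.85% of all genes rose and 3.21% fell. MIC26 stood at 6.24 and 9.88 CPM without and at 14.7 and 15.5 with CoCl2 (log2 0.89, SE 0.217, adjusted p = 0.0214). SAM35 stood at 80.3 and 55.8 CPM without and at 29.4 and 45.6 with CoCl2 (log2 −0.86, SE 0.239, adjusted p = 0.0418). Both calls were lost without rox1 CoCl2 replicate 1 (adjusted p = 0.0818 and 0.321), and MIC26 without rox1 CoCl2 replicate 2 (0.0849). Both were also lost without rox1 replicate 1 (0.284 and 0.429), and that library lay far from its partner for several members, with TIM10 at 76.4 CPM against 148 and TIM11 at 21.4 against 47.4. MIC60 (log2 0.86, adjusted p = 0.0558) and MIC27 (0.70, adjusted p = 0.0539) missed the threshold. MIC10 stood at 22.5 and 18.1 CPM without and at 26 and 11.7 with CoCl2, and its interval ran from −0.82 to 0.59.

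In rox1/rox2 cells, edgeR called 0 of 35 members with CoCl2, with 9 at an unadjusted p under 0.05 and 2 called by DESeq2. Of all genes, edgeR called 5.79%, and 24.2% had an unadjusted p under 0.05. The 6 MICOS genes had log2 fold changes from 0.65 (MIC26) to 0.94 (MIC10), with adjusted p from 0.0569 to 0.179. MIC60 stood at 52 and 55.3 CPM without and at 110 and 76.9 with CoCl2. SAM35, at 49.1 and 48.2 CPM without and 39.1 and 37.4 with CoCl2, was lower in both CoCl2 libraries with a log2 fold change of −0.35 that did not pass. Across the 35 members, the log2 fold changes with CoCl2 correlated with those of WT with Pearson's r of 0.894 in rox1/rox2, 0.785 in rox1 and 0.779 in rox2. Over all genes these values were 0.83, 0.59 and 0.865. The strains were measured in 1 experiment and genes are not independent replicates, so these are descriptions.

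**Figure D3:**
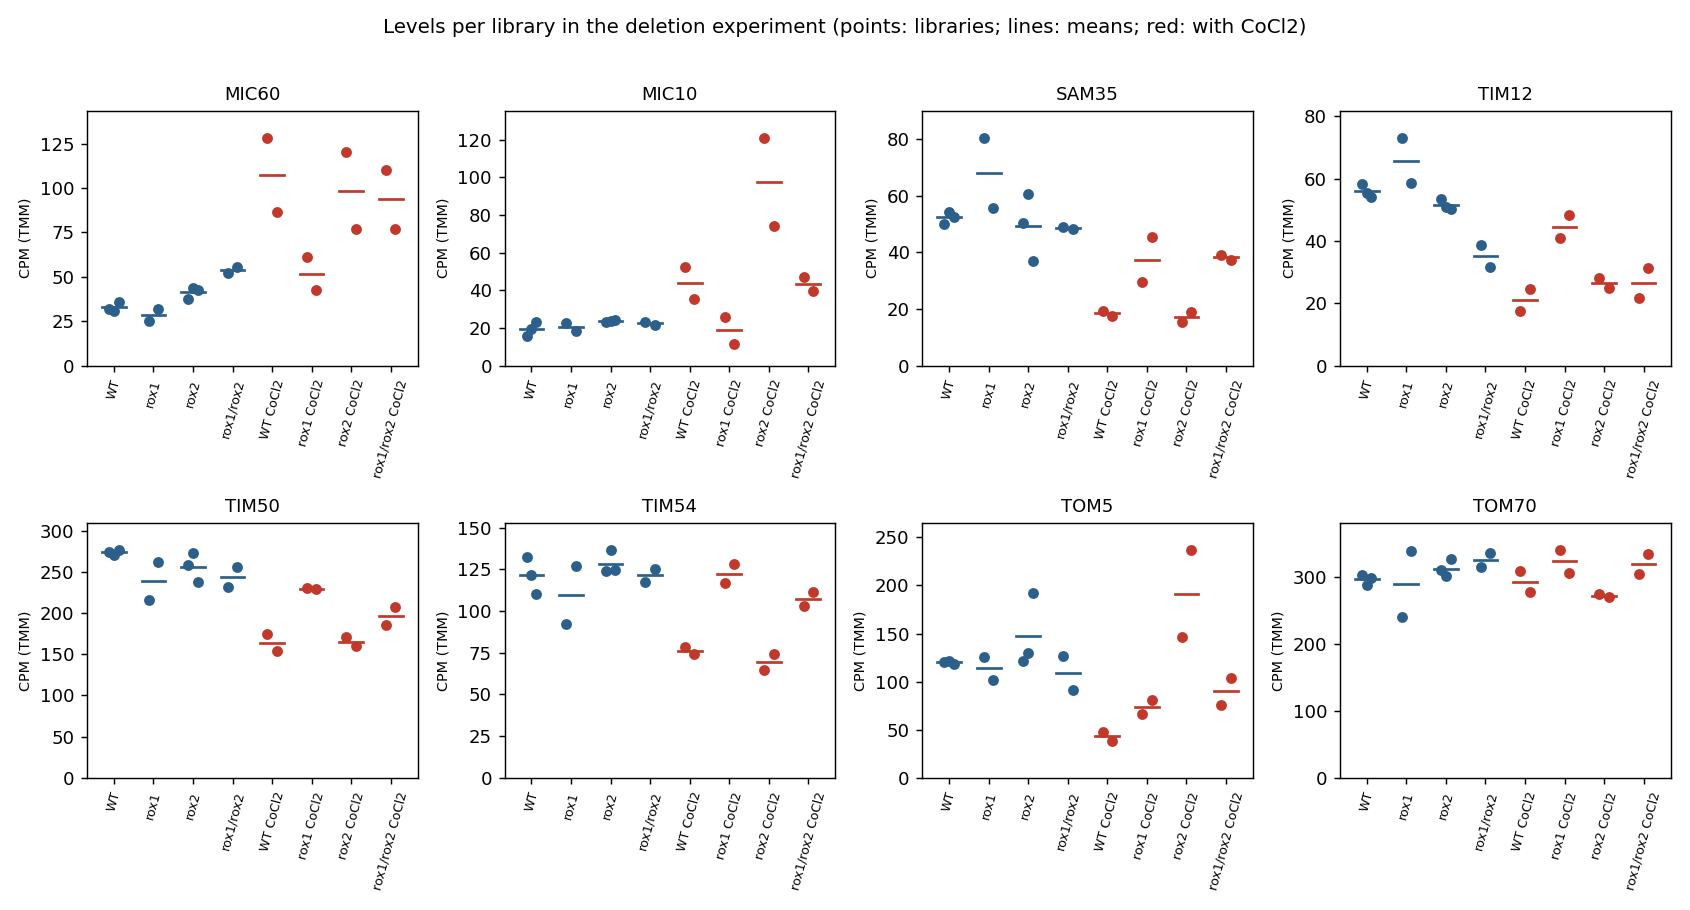
CPM per library of MIC60, MIC10, SAM35, TIM12, TIM50, TIM54, TOM5 and TOM70 in the 8 groups of the deletion experiment, blue without and red with CoCl2, with lines at the means. MIC60 reaches 86.3 and 128 CPM in WT with CoCl2 and 42.3 and 60.9 in rox1 with CoCl2, TOM5 has its highest mean in rox2 with CoCl2, and TOM70 stays between 240 and 340 CPM in every library.

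Without CoCl2, no member was called in any deletion strain against WT by edgeR, with 1, 1 and 5 members at an unadjusted p under 0.05 in rox1, rox2 and rox1/rox2, and 1, 0 and 1 called by DESeq2. Of all genes, edgeR called 0.0541%, 0.0722% and 0.108%, and 8.37%, 7.32% and 16.9% had an unadjusted p under 0.05. When only the WT and rox1/rox2 libraries were fitted, 6 members were called higher and 6 lower in rox1/rox2, where 24.4% of all genes were higher and 26.5% lower. In rox2, 29 of 35 members and 2948 of all 5544 genes had a log2 fold change above 0, with medians of 0.13 and 0.02. With the trend with coding length taken out, 26 members did. In rox1 and rox1/rox2, 14 and 18 members were above 0. SAM35 in rox2 was among those below 0, and its libraries spread from 36.8 to 60.7 CPM, around the WT libraries.

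With CoCl2, rox1 cells differed from WT in both directions. Of 35 members, 8 were higher and 3 lower in rox1, where 4.65% of all genes were higher and 12.9% lower. With total counts 3 were higher and 3 lower, where 3.17% and 10.9% of all genes were, since PAM16, TIM44, TIM54, TIM17 and TIM50 did not pass (adjusted p from 0.0723 to 0.204). The 3 lower were the MICOS genes MIC10, at 26 and 11.7 CPM against 52.3 and 35.6 in WT (log2 −1.23, SE 0.324, adjusted p = 0.0202), MIC60 (−1.06, SE 0.254) and MIC27 (−0.83, SE 0.199). The 8 higher were genes outside MICOS, namely TIM12 (log2 1.09, SE 0.2, adjusted p = 0.00371), SAM35 (1.02, SE 0.247), PAM18 (0.81), TIM54 (0.68), PAM16, TIM17 (0.64 each), TIM44 (0.59) and TIM50 (0.48). TIM12 stood at 40.8 and 48.4 CPM in rox1 with CoCl2 and at 17.5 and 24.5 in WT with CoCl2, so the groups did not overlap. This comparison uses the same WT CoCl2 libraries as the response of WT. None of these 11 calls was kept without rox1 CoCl2 replicate 2 (adjusted p from 0.0611 to 0.217) or when only these 4 libraries were fitted. Without WT CoCl2 replicate 1, MIC27, PAM16 and TIM44 kept theirs. TIM17 and TIM50 were lost with any of the 4 libraries left out, TIM44 also without WT CoCl2 replicate 2 (0.0569), and MIC27 also without rox1 CoCl2 replicate 1 (0.0517).

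**Figure D4:**
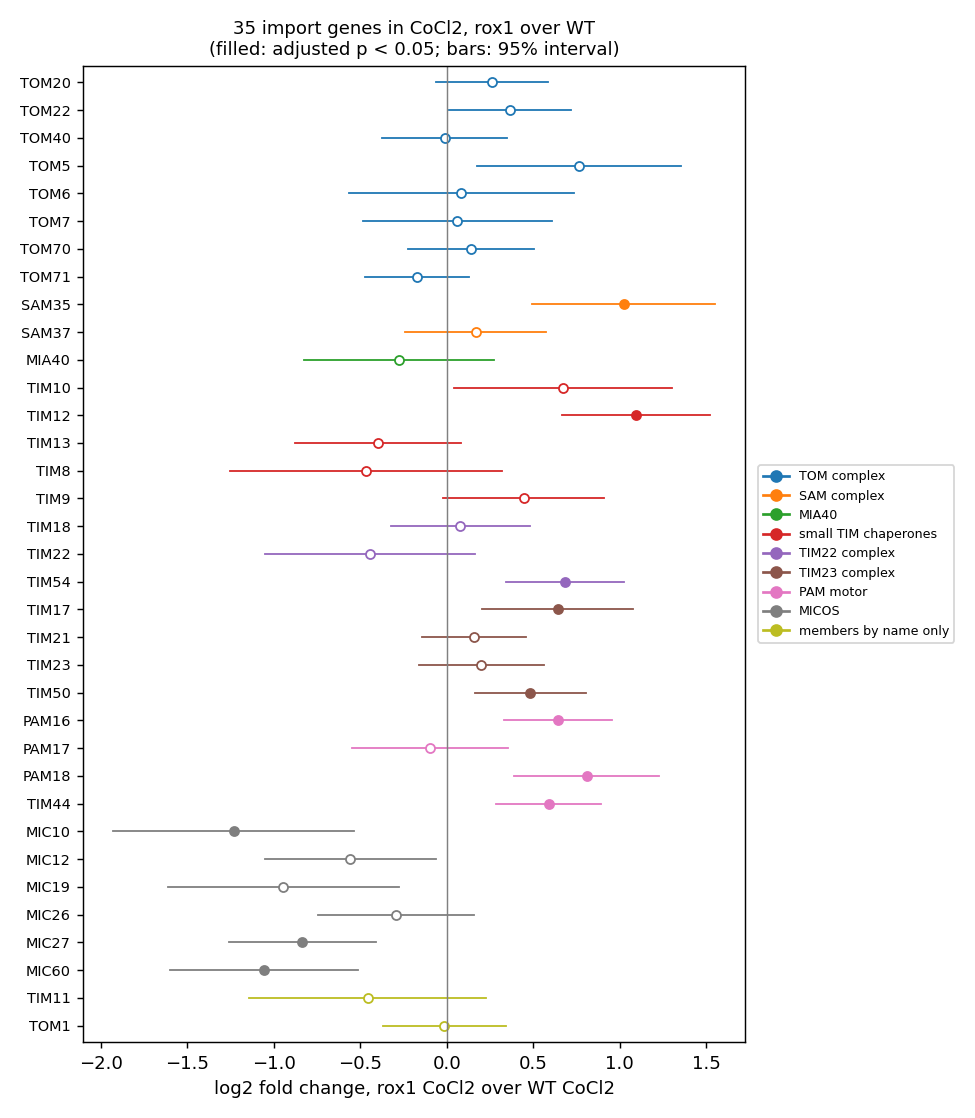
Log2 fold change of rox1 over WT cells, both with CoCl2, for 35 import genes with 95% intervals, filled where the adjusted p was under 0.05. All 6 MICOS genes lie left of 0, with MIC10, MIC27 and MIC60 filled, and TIM12 and SAM35 lie at 1.09 and 1.02 on the right.

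The difference between the CoCl2 responses was tested in the same fit. The response of rox1 lay above that of WT for 2 of 35 members, where 0.812% of all genes were called in that direction and 3.9% in the other. TIM54 fell in WT and had a log2 fold change of 0.16 in rox1, at 92.2 and 127 CPM without and 117 and 128 with CoCl2, a difference in response of 0.83 (SE 0.214, adjusted p = 0.0428). For PAM16 the difference was 0.73 (SE 0.197, adjusted p = 0.0496). None of the MICOS genes passed, with MIC10 at −1.30 (adjusted p = 0.0932). For rox2 and rox1/rox2, edgeR called 0 of 35 members, with 7 and 12 at an unadjusted p under 0.05 and 3 each called by DESeq2. Of all genes, edgeR called 0.0902% and 0.397%, and 13.9% and 14.8% had an unadjusted p under 0.05. Of the 9 libraries behind the calls in rox1, only the first of rox1 with CoCl2 and the second of rox1 without it could be left out with both calls kept, and the adjusted p of the others ran from 0.0555 to 0.217.

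In CoCl2, 4 members were higher in rox2 than in WT and 0 lower, where 2.69% of all genes were higher and 0.884% lower. They were TOM5, at 146 and 237 CPM against 47.7 and 38.4 (log2 2.15, SE 0.282, adjusted p = 0.00261), TIM10 (1.18, SE 0.296), TIM9 (1.09, SE 0.218) and PAM18 (1.07, SE 0.197). The coding lengths of these genes are 153, 282, 267 and 477 bp, below the median of all genes of 1242 bp. Over all genes, the log2 fold change of rox2 against WT with CoCl2 had a Spearman's rho of −0.741 with coding length, and over the members −0.686. With this trend taken out, none of the 4 was called, and TIM10 also did not pass with total counts (adjusted p = 0.0746). In rox1/rox2 with CoCl2, TOM5 (log2 1.06, SE 0.275) and SAM35 (1.05, SE 0.248) were higher than in WT, where 1.24% of all genes were higher and 3.77% lower. With the length trend taken out, this log2 fold change of TOM5 was 0.56 (adjusted p = 0.142). Without WT CoCl2 replicate 2, no member was called in either comparison. Without WT CoCl2 replicate 1, TOM5 in rox2 kept its call and the other 5 calls did not (adjusted p from 0.0728 to 0.162). TIM10 and TIM9 in rox2 were also lost without rox2 CoCl2 replicate 2 (0.196 and 0.088), SAM35 in rox1/rox2 without rox1/rox2 CoCl2 replicate 1 (0.088), and both calls in rox1/rox2 without its replicate 2 (0.113 and 0.209).

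In 1% oxygen, 4 of 36 members fell and none rose, where 3.85% of all 5559 genes tested fell and 2.64% rose. The changes were small beside those with CoCl2. TIM9 stood at 219, 187 and 237 CPM in normoxia and at 164, 155 and 170 in hypoxia (log2 −0.39, SE 0.0813, adjusted p = 0.0206). TIM17 stood at 81.6, 72.1 and 86.3 CPM in normoxia and at 64, 62.1 and 63 in hypoxia (log2 −0.34, SE 0.0726, adjusted p = 0.0227), and TIM23 at 196, 190 and 215 against 167, 164 and 173 (log2 −0.25, SE 0.0574, adjusted p = 0.0298). For these 3 genes, which encode a chaperone and both channel subunits of the TIM23 complex, every hypoxic library lay below every normoxic one. TIM11 also fell (log2 −0.34, adjusted p = 0.048), but did not pass with total counts (0.0542) or with the trend with coding length taken out (log2 −0.24, adjusted p = 0.112).

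The log2 fold change in hypoxia was below 0 for 33 of 36 members, with a median of −0.17 against 0.00 over all genes, and 17 members, against 22.1% of all genes, had an unadjusted p under 0.05. The libraries of the groups did not overlap for 18 of 36 members and for 27.5% of all genes. SAM37, MIC12 and SAM50 were the 3 above 0, by at most 0.05. With the replicate number as a block, 11 members fell, where 7.9% of all genes did, namely TIM9, TIM17, TIM23 and TIM11 together with TIM13, PAM16, TOM5, TIM50, TOM40, TOM70 and TOM7. None of the MICOS genes was among them, and MIC60 stood at 50.9, 59.9 and 53.1 CPM in normoxia and 49.6, 49.7 and 46.2 in hypoxia. Each of the 4 calls was lost without normoxia replicate 1, hypoxia replicate 1 or hypoxia replicate 2 (adjusted p from 0.0715 to 0.196), and TIM17, TIM23 and TIM11 also without normoxia replicate 3 or hypoxia replicate 3 (0.0536 to 0.103). Longer genes had higher log2 fold changes in hypoxia (Spearman's rho 0.209 over all genes and 0.399 over the members). The median coding length was 580.5 bp over the members and 1242 bp over all genes.

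**Figure D5:**
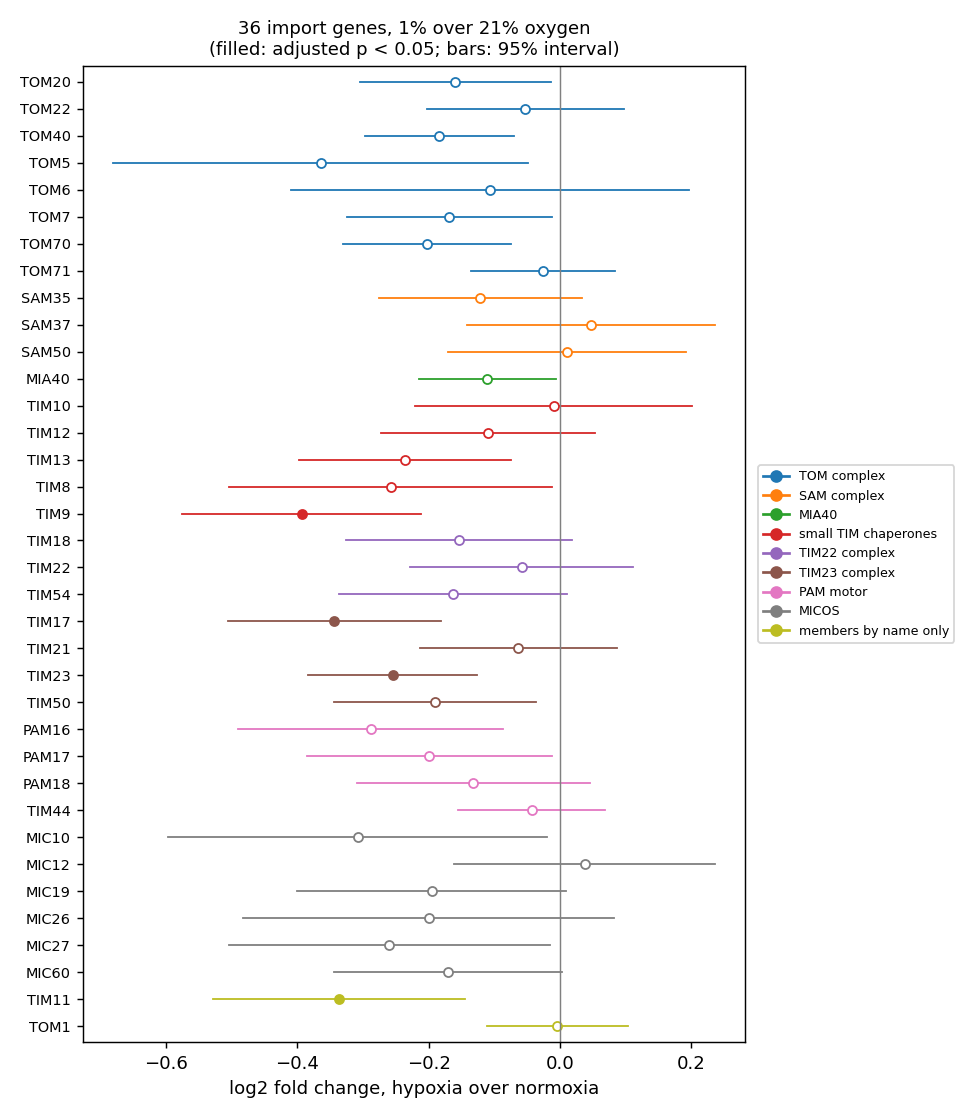
Log2 fold change of 36 import genes in WT cells, 1% over 21% oxygen, with 95% intervals, filled where the adjusted p was under 0.05. Of the 36 points 33 lie left of 0, and TIM9 (−0.39), TIM17 (−0.34), TIM11 (−0.34) and TIM23 (−0.25) are filled.

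The members together held 0.548% ± 0.0078 of the gene counts in normoxia and 0.498% ± 0.011 in hypoxia (n = 3 each), and the ranges, 0.539% to 0.555% and 0.489% to 0.51%, did not overlap. In the deletion experiment they held 0.307% ± 0.0061 in WT and 0.341% ± 0.056 in WT with CoCl2, with overlapping ranges. With CoCl2 the share was higher without overlap in the deletion strains, at 0.344% to 0.353% against 0.289% to 0.337% in rox1, 0.369% to 0.425% against 0.302% to 0.356% in rox2, and 0.392% to 0.425% against 0.358% to 0.360% in rox1/rox2. These shares are of total counts, not of TMM-scaled counts. For CoCl2, scaling to total counts moved the median of all genes up on the log2 scale, by 0.142 (rox1/rox2), 0.174 (rox1) and 0.236 (rox2). How much of the higher shares this general shift covers was not tested, so they do not show a rise relative to other genes. Between hypoxia and CoCl2 in WT, the log2 fold changes of 35 members had a Pearson's r of −0.011, beside −0.137 over all genes.

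A list of other import genes, which holds processing peptidases, matrix chaperones and further subunits, had 35 of its 38 names in the annotation. With CoCl2 in WT, 12 of them rose (34.3%) and 8 fell (22.9%), where 27.7% and 19.4% of all genes did. The rises were led by OM45, an outer membrane protein (log2 3.29, SE 0.678), MIM1, which helps insert outer membrane proteins (1.66, SE 0.15), the matrix disaggregase HSP78 (1.45) and MBA1, a ribosome receptor (1.24). The falls were led by the matrix chaperonin HSP60 (−0.93, SE 0.248), ZIM17, an escort of the matrix Hsp70 (−0.84), XDJ1, a J protein (−0.82), and the co-chaperonin HSP10 (−0.72). In rox2, 11 rose and 5 fell (31.4% and 14.3%), where 26.3% and 21.8% of all genes did. In rox1 and rox1/rox2, 3 rose (8.6%) and 0 fell in each. Of all genes, 4.9% rose and 3.2% fell in rox1, and 4.4% rose and 1.4% fell in rox1/rox2. MIM1 rose in all 4 strains, by 1.60, 2.17 and 1.28 in rox1, rox2 and rox1/rox2.

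In hypoxia, 11 of these 35 genes fell (31.4%) and none rose, where 3.85% of all genes fell and 2.64% rose. They included MIX17, a small protein of the intermembrane space (log2 −0.78, SE 0.0703), HSP10 (−0.41, SE 0.0546), the processing peptidase gene MAS1 (−0.38), the TIM23 partner gene MGR2 (−0.37) and the motor Hsp70 gene SSC1 (−0.35). MIX17 had the opposite sign with CoCl2 in WT, where it rose by 1.14 (SE 0.229). For scale, 52 respiratory chain and ATP synthase genes were taken by symbol (COX, QCR, SDH or ATP and a digit, CYT1, CYC1, RIP1). This list can hold assembly factors with such names, and it leaves out subunits named otherwise, such as TIM11. Of the 52 genes so named, 39 rose and 0 fell with CoCl2 in WT, with a median log2 fold change of 1.56. In hypoxia, 17 of them fell and 1 rose. Of 66 mitochondrial ribosomal protein genes (symbol MRP, MRPL, MRPS or RSM and a digit), 14 rose with CoCl2 in WT (21.2%) and 4 fell (6.1%). Of all genes, 27.7% rose and 19.4% fell there. In hypoxia, 12 of the 66 fell (18.2%) and 0 rose.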

How the data were processed

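RNA-seq reads per gene were analysed from the raw counts deposited by the authors. Per the submitters' processing notes, TopHat2 and HTSeq 0.6.0 were used; the TopHat2 version, genome build, annotation and counting strand are not given in the sources used here. Libraries, per the labels, were strand-specific, with reads of 42 bp in the deletion experiment and 90 bp in the oxygen experiment, which another provider sequenced, so the experiments were fitted apart. Exon counts of the deletion experiment (5852 entries) were summed to 5648 genes. Symbols and coding lengths came from RefSeq assembly ASM23734v1 (5589 genes matched, 4484 with a symbol). No coordinates, promoters or protein sequences are shown. Reads outside genes and the other entries of the counter stayed out of library sizes and tests. The report gives the share of reads outside genes for the deletion experiment, and it was 9.08% to 10.5% in the oxygen experiment. Per 100 gene counts, the deletion libraries had between 17.3 and 42.8 reads matching several places, the most in rox1 with CoCl2 replicate 1. Every oxygen library had 0.0 such reads recorded. Why the experiments differ in this was not tested.

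Libraries were scaled by TMM, genes were filtered with filterByExpr (minimum 10 counts), and 14 comparisons were tested with edgeR 4.0.16 (glmQLFit, glmQLFTest, two-sided) in R 4.3.3. P-values were adjusted by Benjamini-Hochberg across the 5544 and 5559 genes tested, with a threshold of 0.05. The 8 groups of the deletion experiment shared 1 fit, since most had 2 libraries. The biological coefficient of variation was 0.199 there and 0.0684 in the oxygen experiment. On simulated data, with 200 changed genes and 1 spread for all genes, the test was run for CoCl2 in WT and for hypoxia. It recovered 10% of 1.5-fold, 62% of 2-fold and 100% of 4-fold rises for CoCl2 in WT, and 100% of each for hypoxia. The changed genes were drawn only from genes above a set level in untreated WT or normoxia. These shares therefore do not cover genes at lower levels, such as MIC26.

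Pairing by replicate number was checked from the correlation, across genes, of the deviations of same-numbered libraries from their group means. In the oxygen experiment r was 0.152, 0.307 and 0.137, all above 0.1. Results blocked by the numbers, which the labels give, therefore stand beside the unblocked hypoxia results they change. The cut of 0.1 was not tested on libraries known to be unpaired, so it cannot decide whether these libraries were paired. Members and lists were chosen with earlier results of these data known. Named genes were, by rule, up to 6 called members per direction in each comparison, the leading member of each role, uncalled members that oppose their role, and up to 4 other import genes per direction; others are named to account for their role. Alternatives were other scalings (DESeq2 size factors, total counts), no filter, DESeq2 1.42.0, a block, a lowess trend with coding length as an offset, fits of the compared groups alone and leaving out each library. Added after the data had been seen was the fit without rox2 replicate 3 and rox2 with CoCl2 replicate 1.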

Additional observations from a re-analysis of the deposited data

Results flagged for a closer look

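The response of TIM54 to CoCl2 was higher in rox1 than in WT by 0.83 on the log2 scale (SE 0.214, adjusted p = 0.0428 by edgeR), which a test of the difference between the strains' responses picked out. The same test picked out PAM16, with a difference of 0.73 (SE 0.197, adjusted p = 0.0496). Neither call was kept under every alternative, although DESeq2 kept both. With total counts in edgeR both were lost (adjusted p = 0.159 for TIM54 and 0.209 for PAM16). PAM16 was also lost with DESeq2 size factors (0.059), no filter (0.0511), the block (0.0517) and the length offset (0.134). PAM16 stood at 46.2, 51.5 and 50.3 CPM without and 33.1 and 27.2 with CoCl2 in WT, and at 42.8 and 50 without and 44.4 and 49.9 with CoCl2 in rox1, so the groups were apart in WT and overlapped in rox1.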

How the results depend on the processing

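The report rests on 62 called results of single members. Over all alternatives, 614 values kept their direction and call, 176 kept their direction and lost the call (105 of them with 1 library left out), and 1 reversed: TOM1 with CoCl2 in WT, at −0.085 with the coding length offset. The count of called members for CoCl2 in WT stayed within 1.5 times the main count in each alternative, from 15 to 21 with 1 library left out, but its split of 8 higher and 13 lower became 12 and 6 with total counts and 10 and 9 with the length offset. For CoCl2 in rox2 the split of 9 and 7 became 10 and 3, and 6 and 12. Counts of called members moved by more as follows. With the replicate block, hypoxia gave 11, and the block moved no other count this far, although TIM9 with CoCl2 in WT (adjusted p = 0.0604) and PAM16 in the rox1 difference of responses (0.0517) lost their calls. In the deletion experiment the correlations of same-numbered libraries ran from −0.413 to 0.159. Only CoCl2 in WT, at 0.159, lay above the cut of 0.1 used for hypoxia. The numbers were not taken as pairs in this shared fit. With DESeq2, CoCl2 gave 6 in rox1 and 2 in rox1/rox2, rox1 and rox1/rox2 against WT gave 1 each, rox2 and rox1/rox2 against WT with CoCl2 gave 11 and 7, and the differences of responses gave 5, 3 and 3 in rox1, rox2 and rox1/rox2. With total counts, CoCl2 in rox1 gave 1, rox1 against WT with CoCl2 gave 6 (3 in each direction) and the rox1 difference of responses 0. That difference gave 1 with DESeq2 size factors, with no filter and with the length offset. With the length offset, rox2 and rox1/rox2 against WT with CoCl2 gave 0 and 1. With only the groups compared, CoCl2 gave 0 in rox1 and 10 in rox2, rox1/rox2 against WT gave 12, rox1, rox2 and rox1/rox2 against WT with CoCl2 gave 0 each, and the differences of responses gave 0 in rox1 and 2 in rox1/rox2. Those fits use fewer libraries to estimate the spread, and replicates did not vary alike in all groups. Between 2 libraries of a group, squared count differences, relative to those from counting alone, averaged 4.31 to 7.5 per gene in WT. They averaged 4.68 in rox1/rox2, 88.9 in rox1, 18.7 to 94.3 in rox2 and 64.55 to 129 in the groups with CoCl2. The shared fit gives each gene 1 spread for all groups, and how far this moved the calls was not tested. Without rox2 replicate 3 and rox2 with CoCl2 replicate 1, an alternative chosen after seeing the data, CoCl2 gave 4 in rox1 and 2 in rox1/rox2, and the rox2 difference of responses gave 3. For the other changes the cause was not tested. With 1 library left out, counts ran from 0 to 8 for CoCl2 in rox1, 10 to 18 in rox2 and 0 to 2 in rox1/rox2, and from 0 to 6 in hypoxia. Against WT without CoCl2 they ran from 0 to 1 in rox1 and were 0 in rox2 and rox1/rox2. Against WT with CoCl2 they ran from 0 to 11 in rox1, 0 to 5 in rox2 and 0 to 2 in rox1/rox2, and for the differences of responses from 0 to 5, 0 to 2 and 0 to 1. Where 1 library remained in a group, it was assumed to vary like the other groups. In the simulation, with 200 changed genes and 1 spread for all genes, 10% of 1.5-fold rises with CoCl2 in WT were recovered. In the data, 2607 of 5544 genes were called there, and some members were called at smaller changes, such as TOM22 and TIM23. The simulation therefore does not set the smallest change that these data could show.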
